A study of Homo sapiens with 4 samples.

Results

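The 8 genes described here encode the proteins that detect foreign or misplaced nucleic acid inside a human cell and relay that signal to the interferon genes. DDX58 (RIG-I), IFIH1 (MDA5), TLR3 and MB21D1 (cGAS) are the sensors. MAVS, TMEM173 (STING), TBK1 and IRF3 act downstream of them. For each gene the window was the gene, with its ends given in whole kb, plus 10 kb on each side, on the hg19 build. A peak belonged to a gene when its summit, the point of highest signal, lay in that window. By this rule 58 of the 371521 summits in the deposited peak list belonged to the 8 genes, in 37 of its 197823 regions, where a region is a distinct start and end and may hold several summits.

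ATAC-seq, in which the Tn5 transposase inserts adapters into accessible DNA, was carried out on T47D-MTVL, a derivative of the T47D breast cancer cell line with an integrated luciferase reporter under the MMTV promoter. There were 2 knock-down samples, which expressed an shRNA against multiple histone H1 variants, and 2 control samples, which expressed a random shRNA. The labels do not say whether the samples came from separate cultures or clones. The comparison addressed DNA accessibility when linker histone H1, which binds the nucleosome and its linker DNA, is depleted. The 1 peak list used here has a track line that names the random shRNA and a knock-down code which the labels do not use. The deposited list has multiH1sh in its name where the track line has this code. That both stand for the same knock-down is an assumption. Name and track line also call the list differential, but its values are taken over a background that is the same genome-wide, as described below. The list gives 1 value per summit and none per sample. Therefore no value below compares knock-down with control cells, none has a spread between replicates, and no test was possible. The labelled cell type could not be set against marker genes, because no gene annotation on this build was used.

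RIG-I and MDA5 bind double-stranded RNA in the cytosol and pass the signal to MAVS on mitochondria. TLR3 binds double-stranded RNA in endosomes and signals through another adaptor. cGAS binds DNA in the cytosol and makes a cyclic dinucleotide that activates STING. The routes meet at the kinase TBK1, which phosphorylates IRF3, and IRF3 then enters the nucleus and switches on the interferon beta gene. DDX58, IFIH1 and TLR3 are themselves known to be induced by interferon.

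The number of listed summits differed widely between the genes. DDX58 and TLR3 had 0, MB21D1 had 1, IFIH1 had 2, TBK1 had 4, MAVS had 10, TMEM173 had 14 and IRF3 had 27. The 4 sensor windows, 258 kb in all, held 3 summits in 2 regions, at 2 of the 4 genes. The 4 windows of the downstream genes, 175 kb in all, held 55 summits in 35 regions, at 4 of 4 genes. IRF3 and TMEM173 held 41 of these 55, and 16 of those at IRF3 lay packed beyond its end, on the side of SCAF1. TBK1, with 4 summits in 71 kb, stood nearer to IFIH1 than to the other downstream genes. A summit within 2 kb of the gene start was listed for 1 of 4 sensors (IFIH1) and for 4 of 4 downstream genes (MAVS, TMEM173, TBK1 and IRF3), or 5 of the 8 genes. Of all 4 kb tiles on chromosomes 1 to 22 and X, 13.1% held a summit. Tiles are not gene starts, and gene starts in general could not be counted on this build. The tile share is also genome-wide, whereas the surroundings of these genes differed. The 1 Mb on either side held 11.5 to 34 summits per Mb at the sensors and 50.5 to 385 at the downstream genes. Whether the difference at gene starts goes beyond that of the surroundings was not tested. The groups by role were formed with these counts known.

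**Figure D1:**
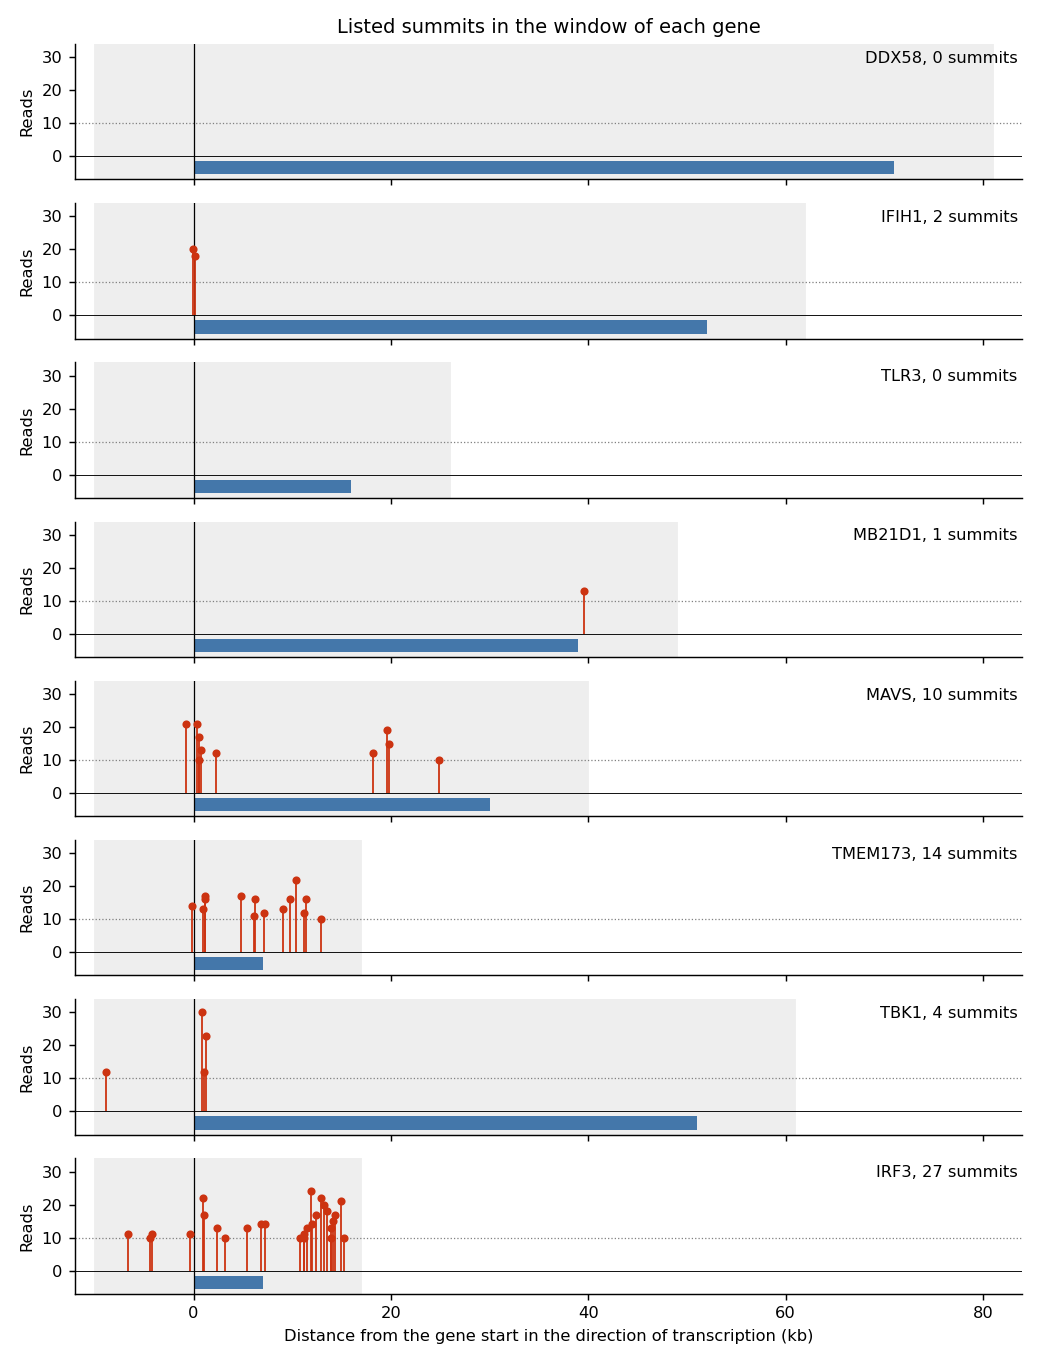
Each panel shows 1 gene, with distance from the gene start in kb on the horizontal axis and the pileup at each listed summit, in reads, on the vertical axis. Blue bars are the genes, grey areas the windows, and the dotted line the lowest pileup in the list (10 reads). DDX58 and TLR3 have no summit, those of IFIH1 and TBK1 lie near the start apart from 1 before TBK1, and most at IRF3 lie beyond its end.

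The promoter sequences of 5 of the 8 genes were found in the RefSeq table (GRCh38.p14, another build than the peak list). They are shown because they allow gene starts with a listed summit (IFIH1, MAVS and TBK1) to be read beside gene starts without one (DDX58 and TLR3). Each run is the 250 bases before the gene start, 5′ to 3′ on the strand of the gene. Capitals mark matches, on either strand, to the motifs named below that lie wholly within the run.
IFIH1: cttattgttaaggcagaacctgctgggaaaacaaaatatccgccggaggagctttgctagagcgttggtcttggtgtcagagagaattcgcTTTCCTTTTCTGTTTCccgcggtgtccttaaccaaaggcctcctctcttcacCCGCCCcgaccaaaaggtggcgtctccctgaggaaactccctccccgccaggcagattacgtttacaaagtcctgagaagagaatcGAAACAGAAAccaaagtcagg
MAVS: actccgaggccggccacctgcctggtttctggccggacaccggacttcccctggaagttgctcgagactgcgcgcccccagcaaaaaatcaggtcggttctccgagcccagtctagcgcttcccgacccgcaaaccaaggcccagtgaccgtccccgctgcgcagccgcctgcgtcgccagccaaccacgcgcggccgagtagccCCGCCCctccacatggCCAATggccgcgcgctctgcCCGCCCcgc
TBK1: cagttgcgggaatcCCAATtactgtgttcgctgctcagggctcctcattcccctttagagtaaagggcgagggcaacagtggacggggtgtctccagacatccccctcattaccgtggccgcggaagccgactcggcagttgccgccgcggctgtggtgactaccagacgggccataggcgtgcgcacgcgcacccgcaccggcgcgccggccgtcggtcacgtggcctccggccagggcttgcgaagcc
DDX58: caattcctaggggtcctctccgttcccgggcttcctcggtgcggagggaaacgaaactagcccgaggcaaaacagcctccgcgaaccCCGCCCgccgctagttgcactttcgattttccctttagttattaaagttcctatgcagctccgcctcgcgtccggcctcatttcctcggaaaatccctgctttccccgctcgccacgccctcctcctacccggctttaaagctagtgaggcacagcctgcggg
TLR3: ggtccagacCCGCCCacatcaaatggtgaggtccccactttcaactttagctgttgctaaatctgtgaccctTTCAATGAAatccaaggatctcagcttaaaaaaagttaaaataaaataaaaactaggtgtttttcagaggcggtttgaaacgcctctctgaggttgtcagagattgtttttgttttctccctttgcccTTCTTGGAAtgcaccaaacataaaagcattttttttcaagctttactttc

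The promoters differed in base composition. CG dinucleotides numbered 12 in the 250 bases of IFIH1, 28 in MAVS, 27 in TBK1, 22 in DDX58 and 3 in TLR3, against a median of 11 over the 35116 promoters in the table. The GC content was 51.2% in IFIH1, 70.4% in MAVS, 66.8% in TBK1, 59.6% in DDX58 and 39.2% in TLR3, against a median of 58.0%. DDX58 thus had more CG dinucleotides than IFIH1 and no listed summit, and TLR3 had the fewest of the 5.

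Matches were searched in these bases and the 50 after the start, on both strands, for motifs of factors that act at promoters. The interferon-stimulated response element core (GAAA, any 2 bases, GAAA), which interferon regulatory factors bind, was found at IFIH1 and TLR3 and in 3.57% of all promoters. At IFIH1 it began 159, 153 and 21 bases before the start, the first 2 matches overlapping on the opposite strand. At TLR3 it began 4 bases before the start, on the opposite strand, and ran past it, so it is not in capitals above. The DDX58 run holds gaaacgaaa, with a shorter spacing between the GAAA repeats. That spacing was not searched, so a related site at DDX58 is not excluded. The STAT site TTCNNNGAA was found at TLR3 only among the 5 (7.66% of all promoters). The GC box GGGCGG was found at IFIH1, MAVS, DDX58 and TLR3 (45.0% of all), CCAAT at MAVS and TBK1 (34.6%), and the ETS core CCGGAAG at TBK1, across the start (10.3%). Neither the strictly palindromic form of the NRF1 motif (1.24%) nor the AP-1 motif TGANTCA (7.71%) was found at any of the 5. The TBK1 run holds gcgcac followed directly by gcgc, with c where the palindrome has t. That form was not searched, so a related NRF1 site at TBK1 is not excluded. All of these results are matches of letters, and binding was not measured.

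IFIH1, which encodes the sensor of long double-stranded RNA, had 1 listed region, and it lay across the gene start. It ran over 235 bp at chr2:163174858-163175092 (chromosome 2, gene interval 163123 to 163175 kb, minus strand). Its summits were at 163174880, with a fold enrichment of 6.32, and at 163175062, with a fold of 6.98. The fold is the authors' ratio of the signal at the summit to a background, and from it the pileup, the number of reads over the summit, was recovered as 18 and 20. Their 95% Poisson intervals, 10.7 to 28.4 and 12.2 to 30.9 reads, overlap. These intervals, like all below, cover counting error only, because amplified reads were counted with no molecular identifiers. No other summit lay in the 72 kb window, and the next one beyond the gene end was 347.5 kb away. Before the start the next summit was 25.5 kb away, with a fold of 9.64 and 28 reads. In the RefSeq table GCA is the next gene before the IFIH1 start. The region belongs to IFIH1 by position, and whether it also acts on GCA was not tested.

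MB21D1, which encodes the cytosolic DNA sensor, had 1 summit, and it was not near its start. It lay at 74122424 on chromosome 6, 39.6 kb from the start and just beyond the end of the interval (74123 to 74162 kb, minus strand), where DDX43 is the next gene in the RefSeq table. The fold was 4.65 and the pileup 13 reads (6.92 to 22.2), and 76.0% of all summits in the list had at least this fold. Around the start of MB21D1, 107.6 kb held no listed summit.

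DDX58 and TLR3 had no listed summit. DDX58 lies at 32455 to 32526 kb on the short arm of chromosome 9 (minus strand), and its start fell in a stretch of 165.9 kb without a summit. That stretch ended at summits at 32384921, with 12 reads, on the side of ACO1, and at 32550814, with 10 reads, on the side of TOPORS. TLR3 lies at 186990 to 187006 kb on the long arm of chromosome 4 (plus strand), in a stretch of 47.0 kb without a summit. The nearest summit was 10.8 kb before its start, just outside the window, with a fold of 4.99 and 14 reads. The next beyond its end was 20.2 kb away with a fold of 7.31 and 21 reads. The lowest pileup in the list was 10 reads, so these genes had no peak at that depth, and a lower signal would not be listed.

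MAVS, the mitochondrial adaptor of RIG-I and MDA5 (chromosome 20, 3827 to 3857 kb, plus strand), had 10 summits in 6 regions. They formed a group at the start and another deep in the gene. At the start, a region of 898 bp had its summit at 3826247, 0.754 kb before the start, with a fold of 7.31 and 21 reads (13.0 to 32.1). The next region, 538 bp wide at chr20:3827351-3827888, had 4 summits of 21, 17, 10 and 13 reads, the strongest at 3827397 with the same fold of 7.31. After a last summit of 12 reads at 2.24 kb came 15.9 kb without any. The second group, from 18.1 to 24.9 kb into the gene, had 4 summits of 12, 19, 15 and 10 reads. Its strongest, at 3846639, had a fold of 6.65 and an interval (11.4 to 29.7 reads) that overlaps those at the start.

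TMEM173, which encodes STING (chromosome 5, 138855 to 138862 kb, minus strand), had 14 summits in 10 regions spread over its window. Within 2 kb of the start there were 4 summits, 1 of them 0.183 kb before it with a fold of 4.99 and 14 reads (7.65 to 23.5). The other 3, of 17, 16 and 13 reads, shared a region of 370 bp at about 1 kb inside the gene. In the gene as a whole there were 6 summits of 11 to 17 reads, and beyond its end, towards SMIM33, another 7 of 10 to 22 reads. The highest fold in the window, 7.65 with 22 reads (13.8 to 33.3), was at 138851610 beyond the gene end. The next highest fold, 5.98, was shared by a summit at 138857150 in the gene and one at 138860808 near the start. Summits of 10 to 22 reads thus ran along the gene and its downstream flank. The interval of the weakest, 4.80 to 18.4 around 10 reads, overlaps that of the strongest, which does not show that their heights are equal.

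TBK1, the kinase that phosphorylates IRF3 (chromosome 12, 64845 to 64896 kb, plus strand), had the summit with the highest fold of the 8 genes. It lay in a region of 604 bp at chr12:64845709-64846312, at the gene start within the 1 kb precision of the interval. The summit at 64845844 had a fold of 10.3 and 30 reads (20.2 to 42.8), and 6.22% of all summits in the list had at least this fold. Its interval overlaps that of the highest IRF3 summit described below. The same region had summits of 12 reads at 64846060 and of 23 reads (14.6 to 34.5) at 64846245, with folds of 4.32 and 7.98. The only other summit of the window, of 12 reads, was 8.88 kb before the start, on the side of XPOT. No summit was listed in the rest of the 51 kb gene, and the next one was 19.1 kb beyond its end.

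IRF3, the transcription factor at the end of the pathway (chromosome 19, 50162 to 50169 kb, minus strand), had the most summits, 27 in 17 regions, of which 6 lay in the gene. Near its start a region of 240 bp had summits at 50167928, with 17 reads, and at 50168013, with a fold of 7.65 and 22 reads (13.8 to 33.3). Another summit, at 50169394, 0.393 kb before the start, had 11 reads (5.49 to 19.7). BCL2L12 overlaps IRF3 in the RefSeq table, so the signal at the promoters of both genes cannot be told apart. The other 4 summits in the gene had 10 to 14 reads, and 3 summits farther before the start had 10 or 11. The remaining 17 lay beyond the gene end, on the side of SCAF1. Of these, 16 summits in 7 regions were packed from 10.8 to 15.2 kb from the IRF3 start, with 10 to 24 reads. They included the highest fold of the window, 8.31 with 24 reads (15.4 to 35.7) at 50157130, and a fold of 7.65 with 22 reads at 50156063. The number for IRF3 therefore mostly describes sequence beside the gene.

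**Figure D2:**
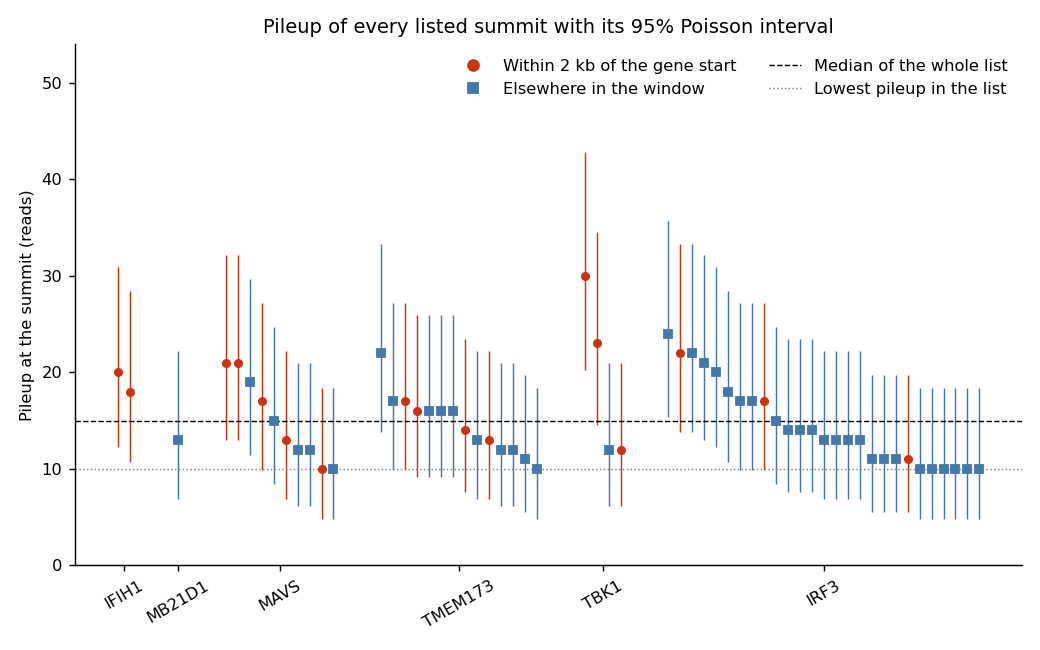
Pileup in reads at each of the 58 summits, ordered within each gene from high to low, with 95% Poisson intervals. Red points lie within 2 kb of the gene start and blue ones elsewhere; the strongest summit of TBK1 has 30 reads, and most intervals cross the median of the whole list, 15 reads (dashed line).

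Together the 58 summits had a median height near that of the list, and few of them reached 24 reads. Their median fold was 4.99, against 5.32 over all summits, and the median pileup was 14 reads, against 15. Pileups of 20 reads or more made up 11 of 58 (19.0%, 95% Wilson interval 10.9 to 30.9%). The share in the whole list, 26.5%, lies within this interval. The interval treats summits as independent, although many share a region, so it is likely too narrow. Only 2 of the 58, the strongest of TBK1 and of IRF3, had an interval wholly above the list's median of 15 reads. Such an interval needs 24 reads, a fold of 8.31, and 14.1% of all summits in the list had at least this fold. The 17 summits within 2 kb of a start had a median of 17 reads and ranged from 10 to 30, and the other 41 had a median of 13 and ranged from 10 to 24. Both ranges overlap widely. Regions had a median width of 235 bp, against 208 bp in the list, and 67.6% had a single summit, against 71.8%.

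Summit density differs between chromosomes in this list, so each window was set beside tiles of its own length on its own chromosome. At least 1 summit was listed in 48.1% of such tiles for DDX58, 37.4% for IFIH1, 17.1% for TLR3, 37.1% for MB21D1, 60.7% for MAVS, 33.3% for TMEM173, 63.6% for TBK1 and 64.1% for IRF3. Holding a summit anywhere in the window, as 6 of the 8 did, was thus not rare for windows of these lengths. Most such tiles held one for MAVS, TBK1 and IRF3, and most held none for IFIH1, MB21D1 and TMEM173. Holding none, as for DDX58 and TLR3, was common on their chromosomes. As many summits as at TMEM173 were found in 4.53% of its tiles, and as many as at IRF3 in 4.72%. For MAVS the share was 24.96%, for TBK1 37.1% and for IFIH1 25.3%.

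The surroundings of the sensors were also sparser than those of the downstream genes. The 1 Mb on either side had 11.5 to 34 summits per Mb at the 4 sensors, against 50.5 to 385 per Mb at the 4 downstream genes. At the density of the 1 Mb on either side, the DDX58 window would have held 3.09 summits, that of IFIH1 0.828, TLR3 0.540 and MB21D1 0.679. The 3 summits of the 4 sensors (Poisson interval 0.619 to 8.77) compare with 5.14 at these densities, a difference within counting error. For DDX58 the absence of summits is within counting error of its surroundings, since a count of 0 has an upper bound of 3.69. The mean densities of the chromosomes would give more, 17.8 for DDX58 and 24.8 for all 4 sensors, but summits are clustered, and the median tile held 0 summits for each of the 4 sensors. The flanks of DDX58 held 68 summits in all, whereas the whole of chromosome 9 had 196 summits per Mb.

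Among the downstream genes the number listed in the window was also within counting error of that of the surroundings, except at IRF3. MAVS had 10 summits (4.80 to 18.4), against 7.05 at the density of its flanks. TMEM173 had 14 (7.65 to 23.5), against 8.94, although its chromosome would give 2.55. TBK1 had 4 (1.09 to 10.2), against 3.59. IRF3 had 27 (17.8 to 39.3), against 10.4, and 17 regions (9.90 to 27.2), against 7.32 with each region counted once. These intervals treat summits and regions as independent, whereas those at IRF3 lie packed, so they are likely too narrow. In the 7 kb of the gene alone, IRF3 had 6 summits (2.20 to 13.1), against 2.70 at the density of its flanks, so its number did not exceed that of the surroundings beyond counting error without the 10 kb on each side. The other downstream genes alone were also above their flanks within counting error. MAVS had 9 (4.12 to 17.1), against 4.23, TMEM173 had 6 (2.20 to 13.1), against 2.32, and TBK1 had 3 (0.619 to 8.77), against 2.58. Listed regions covered 18.3% of the IRF3 window, 10.9% of that of TMEM173, 4.34% of that of MAVS, 1.22% of that of TBK1, 0.346% of that of MB21D1 and 0.326% of that of IFIH1. The covered share of their chromosomes was 4.602%, 1.84%, 3.92%, 3.39%, 0.963% and 0.749% in the same order.

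**Figure D3:**
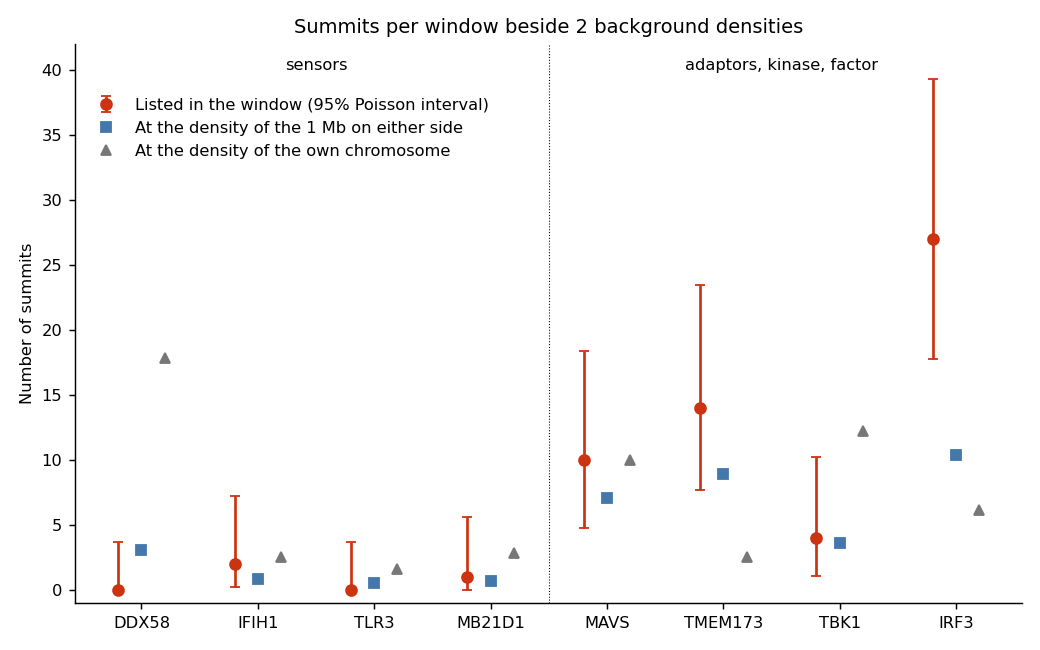
Number of summits in each window (red points, with 95% Poisson intervals), beside the number that the window would hold at the density of the 1 Mb on either side (blue squares) and of its own chromosome (grey triangles). The intervals treat summits as independent, although summits are clustered. The interval of IRF3, 17.8 to 39.3, lies above both, and those of the other 7 genes include the value of the surroundings.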

How the data were processed

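The members and gene groups were chosen with earlier results of these data known. ATAC-seq of 4 samples was represented by 1 peak list, in narrowPeak format and without a value per sample. The authors used Bowtie 1.1.2, the hg19 build and MACS2, per the submitters' processing notes. Settings of the peak caller, duplicate handling and pooling were not stated there. The deposited fold is the ratio of pileup to background at the summit. The deposited −log10 p and q values belong to the same summit. The deposited score was not used. Positions count from 1.

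Pileups were recovered from fold = (pileup + 1) / (background + 1) and the Poisson tail. All 177 distinct pairs of fold and p with a −log10 p in floating-point range gave a whole pileup over a background of 2.01 reads. The solver was tested on 500 simulated lines made with the same formula, and 100% counted as recovered. Simulated lines with a p beyond floating-point range were counted as recovered without being solved. The test therefore checks the arithmetic only. This background is the same genome-wide, so a fold does not measure a difference from control cells. No read totals per sample were at hand. Gene intervals are in whole kb, so distances from gene starts are good to about 1 kb. Gene strands are background knowledge, checked for the 5 genes in the RefSeq promoter table. All 8 genes are named; for those with over 5 summits, the 3 highest and the one nearest to the start are given, the rest by range. Neighbouring genes were taken by name from the RefSeq gene table of GRCh38.p14. Tiles cover each chromosome between its outermost listed regions, with its centromere. Other genes of the pathway were not analysed here, because no gene positions on hg19 were used for them. Alternatives varied the margin, the distance to the start, the q-value, region counting and the background density. Python 3.11.15, numpy 2.4.6, scipy 1.17.1, pandas 2.3.3 and matplotlib 3.10.9 were used.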

Additional observations from a re-analysis of the deposited data

How the results depend on the processing

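The number of summits, 58, was 25 in the genes alone, 100 with a margin of 25 kb, 38 at a −log10 q of 5 or more and 12 at 10 or more. It was 37 with each region counted once, by overlap, or with regions within 100 bp merged, and 31 without the IRF3 window. The 5 genes with a summit near the start became 4 at a −log10 q of 10 or more, where TMEM173 was lost, and remained 5 in number in the 4 other alternatives. The ratio of the 8 windows to their own chromosomes, 1.04 (0.790 to 1.35), was 1.65 against the 1 Mb and 2.41 against the 5 Mb on either side, 0.707 in the genes alone, 0.688 at a −log10 q of 10 or more and 0.625 without the IRF3 window, so it has no stable direction. The median fold, 4.99, was 5.32 in the genes alone, with a margin of 25 kb and without the IRF3 window. With a margin of 25 kb, DDX58 had a highest fold of 5.65 and TLR3 one of 7.31, each from 2 summits. The highest folds of the other 6 genes stayed within counting error where a value could be had. Leaving out the IRF3 window, and setting the downstream genes alone beside their flanks, were chosen after the data were seen. Apart from the effect of fewer or more summits counted, the causes were not tested. No paired analysis was possible because no sample has values of its own in the list, which also prevented leaving out a replicate. A depth of 10 reads at the weakest listed summit limits what a missing peak can show.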
